A study of Rattus norvegicus with 10 samples.

Results

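The genes described are the matrix metalloproteinases (MMPs), the disintegrin metalloproteinases (ADAMs), their relatives with thrombospondin repeats (ADAMTS) and the tissue inhibitors of metalloproteinases (TIMPs) in the rat trigeminal ganglion (TG). They were taken by their symbols, as genes named Mmp, Adam, Adamts or Timp with a number and at most 1 letter, apart from a pair of genes that are not reported here. RefSeq lists 73 such genes, and probes on the array were matched to 50 of them, among 15507 genes with a symbol and 26772 features in all. There were 20 MMPs, 18 ADAMs, 9 ADAMTS genes and 3 TIMPs, and the other 23 genes had no matched probe.

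MMPs cut collagen, basement membrane and other matrix proteins, and most are made as inactive precursors. ADAMs sit in the cell membrane and release the outer part of other membrane proteins, among them cytokines, growth factors and their receptors, while ADAMTS enzymes are secreted and cut proteoglycans and collagen precursors. TIMPs block these enzymes. In sensory ganglia these proteins are known for roles in the matrix around neurons and satellite glia, in myelin and in the shedding of inflammatory signals after nerve injury.

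The TG holds the cell bodies of the sensory neurons of the face and mouth. Oral ulcerative mucositis (OUM) was produced in 5 male Wistar rats, aged 8 weeks per the study's methods, by laying filter paper with 50% acetic acid for 30 s on the mucosa in front of the lower incisors. Another 5 male Wistar rats of the same strain were anaesthetised only and are called naive; the sample labels name these groups Stomatitis and Control. Ganglia were taken on day 2, after perfusion with saline, and the whole TG of both sides was used, so parts of the ganglion that do not innervate the ulcer were included. RNA of each rat was hybridised to 1 Agilent 1-colour array.

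The 10 arrays lay on 2 slides, with 3 OUM and 4 naive arrays on slide 1 and 2 OUM arrays and 1 naive array on slide 2. Between 70.9% and 77.2% of the probes of an array were well above background. Every neuron marker (7 of 7) and Schwann cell marker (6 of 6) on the array was well above background on all arrays, as were 4 of 5 satellite glia markers, so the defining markers of the labelled tissue were present. The summed level of 8 pituitary hormone and lineage genes, given as signal relative to the 75th percentile of the array, was 19.5, 26.2, 1.08, 3.19 and 5.35 in OUM rats 1 to 5, and 21.4, 0.352, 2.16, 0.608 and 1.34 in naive rats 1 to 5. OUM rats 1 and 2 and naive rat 1 stood apart in these genes, and the calls among the members are given with and without these arrays. Macrophage (8 of 8 markers above background), neutrophil (5 of 7), epithelium (3 of 5) and fibroblast and meninges (9 of 9) markers overlapped between the groups in their summed levels. Macrophage markers summed to 15.3 to 20.3 in OUM and 16.5 to 18.4 in naive rats. Fibroblast and meninges markers summed to 105 to 157 and 113 to 148. In both lists OUM rats 2, 4 and 5 were above every naive rat and OUM rat 1 below every naive rat. Epithelium markers summed to 5.47 to 5.82 in OUM and 5.15 to 5.62 in naive rats, with only OUM rat 2 inside the naive range. The part of these cells in the members' values was not tested.

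Most members were present in the ganglion at a measurable level. Of the 50, 32 were well above background on all 10 arrays, 6 on some arrays and 12 on none. All 5 membrane-type MMPs, all 5 proteoglycan-cleaving ADAMTS genes, both neuronal ADAMs without a catalytic site and all 3 TIMPs on the array were detected throughout. Among 10 ADAMs known mainly from testis and epididymis, only *Adam1a*, *Adam4* and *Adam7* were detected on all arrays. The values below are log2 signals relative to the 75th percentile of the same array, and a level on one probe is not comparable with a level on another.

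**Figure D1:**
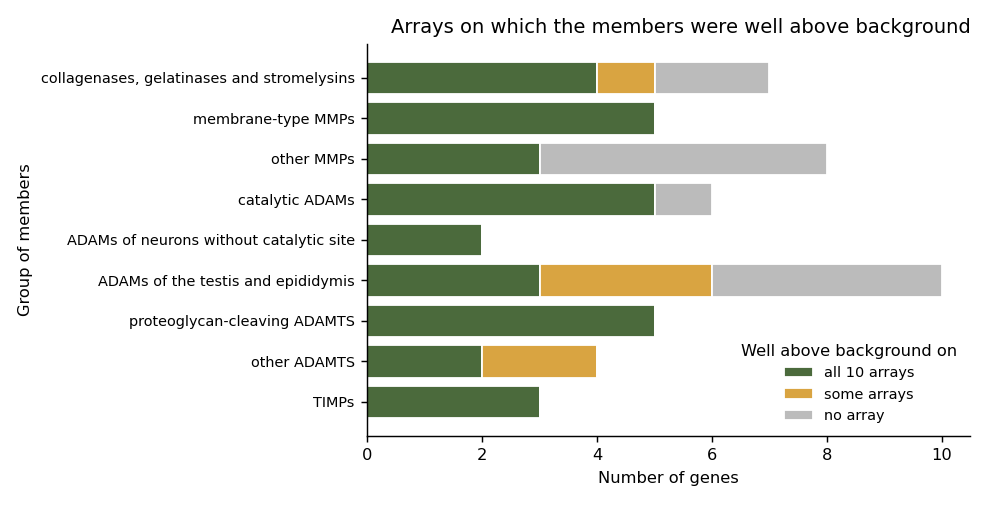
Number of genes (x axis) in each group of members (y axis) above background by the scanner's call on all 10 arrays, on some or on none. All membrane-type MMPs, proteoglycan-cleaving ADAMTS genes and TIMPs were detected on all arrays, and 5 of 8 other MMPs on none.

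Of the members without a value on all arrays of a group, 12 were between -9.58 and -7.53 on every array. They included the stromelysins *Mmp3* and *Mmp10*, matrilysin (*Mmp7*), macrophage elastase (*Mmp12*), the tooth enamel protease *Mmp20*, and *Mmp21* and *Mmp27*. *Adam2*, *Adam3a*, *Adam5*, *Adam26a* and *Adam30* made up the rest. *Mmp9*, the gelatinase carried by neutrophils, was well above background on 0 OUM arrays and on 1 naive array. Its levels were -8.51, -7.42, -8.81, -8.43 and -9.18 in OUM rats and -6.57, -7.71, -8.95, -8.57 and -8.73 in naive rats, so only naive rat 1 carried a clear signal. That array also had the highest summed level of neutrophil markers, 6.40, against 0.503 to 2.64 in the other naive rats and 0.451 to 3.50 in OUM rats, and the part of these cells in the *Mmp9* signal was not tested. The remaining members seen on some arrays were *Adam32* (1 OUM and 2 naive arrays), *Adam34* (3 and 4), *Adam6* (0 and 1), *Adamts18* (2 and 1) and *Adamts19* (3 and 0). A gene that was not well above background had no fold change here, and its absence from the ganglion cannot be read from this.

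The split between detected and undetected MMPs ran through a run of neighbouring genes on chromosome 8. In RefSeq order this run holds *Mmp13*, *Mmp12*, *Mmp1b*, *Mmp3*, *Mmp1*, *Mmp10*, *Mmp27*, *Mmp20* and *Mmp7*, with at most 1 other gene between neighbours, and 8 of these 9 had a probe. *Mmp13* and *Mmp1*, both collagenases, were well above background on all 10 arrays and the other 6 on none. Whether the *Mmp1* probe also reads *Mmp1b*, which had no matched probe, was not tested. Promoter sequences, from 250 bases before to 50 bases after each start, were found in RefSeq (GRCr8) for 32 of the 50 members. The motif TGANTCA, the form bound by AP-1 factors such as Fos and Jun, was searched on both strands with detection already known and reads the same on both. It was in 8 of these 32 promoters (25%) against 7.33% of 33469 promoters of all genes, and 7 of the 8 were genes of this run (*Mmp13*, *Mmp12*, *Mmp3*, *Mmp1*, *Mmp10*, *Mmp20* and *Mmp7*), the other being *Adam19*. The TATA-box letters TATAAA, on either strand, were in 12 of 32 (37.5%) against 14.2% of all. TGANTCA was in 3 of 21 members detected on all arrays (14.3%) and in 5 of the 11 others (45.5%), those 5 all being genes of this run. TATAAA was in 4 of 21 (19%) and 8 of 11 (72.7%). The 11 others include *Adam34* and *Adamts18*, which were well above background on some arrays. TGANTCA was thus in promoters of both detected and other genes. Its higher share among the others went with membership of the run. Among the run's genes with a probe, only *Mmp27* lacked the motif, whether detected or not. Outside the run only *Adam19*, a detected gene, had it. The reason was not tested, and a match of letters is not a shown binding site. The stretch from base -100 to base -21 relative to the start is printed for both detected collagenases and for the 2 undetected stromelysins, with both motifs in capitals.
*Mmp13* (GRCr8 chr8:12782729-12782808, + strand): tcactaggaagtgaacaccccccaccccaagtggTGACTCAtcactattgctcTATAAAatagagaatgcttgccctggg
*Mmp1* (GRCr8 chr8:12943353-12943432, + strand): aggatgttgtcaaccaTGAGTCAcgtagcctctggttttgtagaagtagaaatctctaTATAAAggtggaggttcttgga
*Mmp3* (GRCr8 chr8:12925181-12925260, + strand): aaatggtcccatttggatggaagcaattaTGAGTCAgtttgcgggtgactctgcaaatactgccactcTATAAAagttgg
*Mmp10* (GRCr8 chr8:12974607-12974686, + strand): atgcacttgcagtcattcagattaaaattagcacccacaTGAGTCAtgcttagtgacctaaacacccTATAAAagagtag
In these 4 promoters TGANTCA began at base -66 (*Mmp13*), -84 (*Mmp1*), -71 (*Mmp3*) and -61 (*Mmp10*), ahead of the printed TATAAA letters, which began at -47, -42, -32 and -33 in the same order. *Mmp1* had a second TGANTCA at -242, and *Mmp10* had 2 more TATAAA matches at -198 and -196, both outside the printed stretch.

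To ask whether OUM altered these genes in the TG, OUM and naive arrays were compared with limma over 19271 features, of which 32 were members. All 32 were above background on all arrays of both groups, so none entered the test through 1 group alone. Of the 32, 2 were higher in OUM at an unadjusted p under 0.05 (*Mmp17* and *Mmp15*), against 3.92% of all features, and 3 were lower (*Adamts15*, *Adam4* and *Adamts12*), against 4.91% of all features. None passed an adjusted p of 0.05 in limma, where the lowest was 0.495, against 0.0104% of all features. The OUM and naive arrays of each of the 32 members overlapped, against 1.82% of all features whose groups did not overlap. The members did not shift in 1 direction, with 16 positive and 16 negative changes and a median of -0.0044 log2 units, beside -0.0104 over all features. Estimated folds lay between 0.733 (*Adamts12*) and 1.21 (*Mmp17*), and 27 of 32 members (84.4%) changed by less than 0.2 log2 units, beside 88.7% of all features. The median size of a change, whatever its direction, was 0.107 among the members and 0.067 over all features. The members also varied more within groups, with a median SD of 0.163 beside 0.125, and the part of this spread in the sizes was not tested. Of all features at an unadjusted p under 0.05, 44.4% were higher in OUM under this scaling and 55.3% to 65% under the 4 other scalings tried, while the members' counts stayed at 2 higher and 3 lower, or at 3 and 3 with normexp background correction. With the slide as a block, 3 were higher (*Mmp15*, *Mmp17* and *Mmp28*) and 4 lower (*Adam4*, *Adam9*, *Adamts12* and *Adamts15*). Without the 3 arrays rich in pituitary genes, 1 member was higher (*Adamts4*) and 4 were lower (*Adam23*, *Adam4*, *Adamts12* and *Adamts15*). In bulk tissue, fewer cells of a type and less RNA per cell cannot be told apart.

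**Figure D2:**
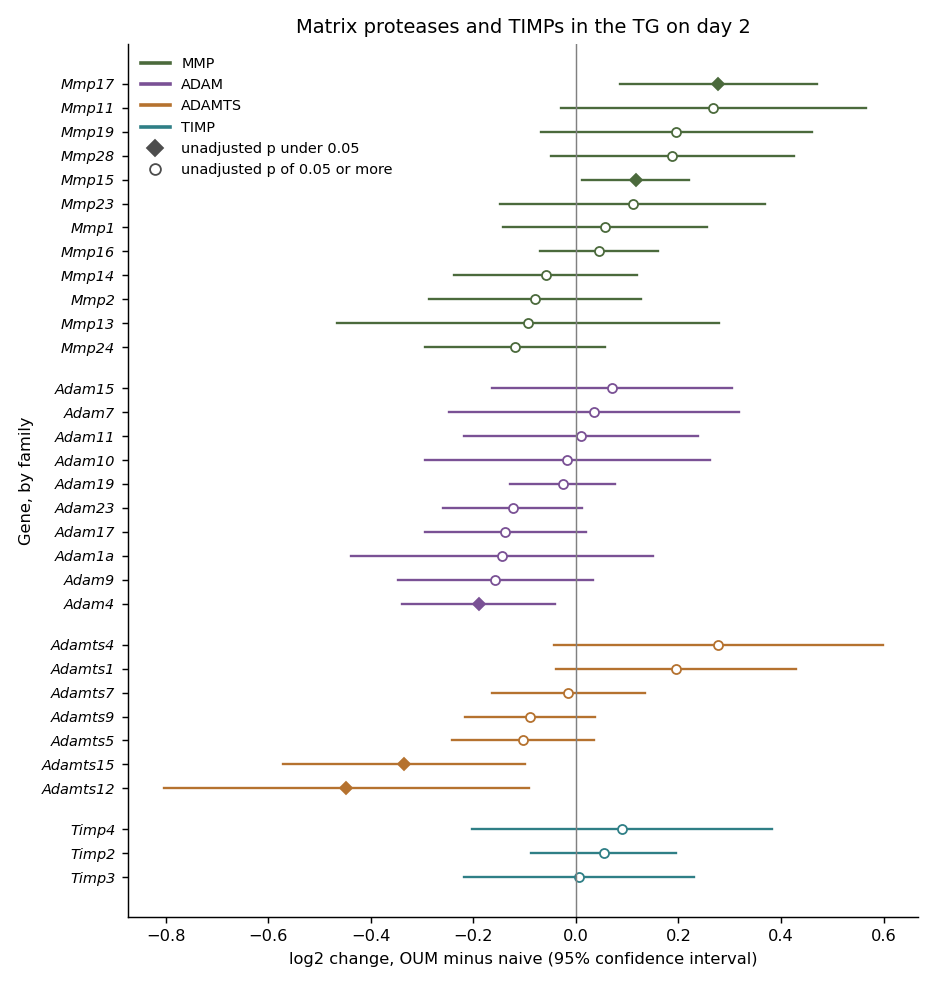
log2 change (x axis, OUM minus naive, with the 95% confidence interval of limma) of the 32 tested members by family (y axis). Filled diamonds mark the 5 members with an unadjusted p under 0.05, and the widest reach is that of *Adamts12*, down to -0.80.

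Of the 5 membrane-type MMPs, which are anchored at the cell surface, 2 were higher in OUM at an unadjusted p under 0.05, beside 3.92% of all features, and none at an adjusted p under 0.05. *Mmp17*, an MMP attached to the membrane by a lipid anchor, had levels of -0.53, -0.62, -0.76, -0.70 and -0.85 in OUM rats 1 to 5 and -1.22, -0.78, -0.98, -0.90 and -0.96 in naive rats 1 to 5. In 4 of 5 OUM rats it was above every naive rat, and OUM rat 5 lay below naive rat 2 only. The change was 0.28 ± 0.086 (SE, n = 5 rats each), or 1.21-fold, with an unadjusted p of 0.0092 and an adjusted p of 0.495 in limma (exact permutation p = 0.0159). A second, dimmer probe of *Mmp17*, well above background on 4 of 5 naive arrays, gave 0.31 ± 0.17 (SE, limma, unadjusted p = 0.098). The difference was 0.35 within slide 1 and 0.13 within slide 2. Without the 3 arrays rich in pituitary genes (OUM rats 1 and 2 and naive rat 1) it was 0.14 (limma, unadjusted p = 0.091), and leaving out any single rat kept its unadjusted p under 0.05.

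*Mmp15* is a transmembrane MMP. Its levels were 4.82, 4.77, 4.75, 4.87 and 4.85 in OUM rats and 4.64, 4.77, 4.61, 4.69 and 4.77 in naive rats. Here 3 of 5 OUM rats were above every naive rat, and OUM rats 2 and 3 lay within the naive range. The change was 0.12 ± 0.047 (SE), or 1.08-fold, with an unadjusted p of 0.032 and an adjusted p of 0.534 in limma, and the second probe gave 0.08 ± 0.060. The unadjusted p was above 0.05 without naive rat 1, 3 or 4 or without OUM rat 1, 4 or 5 (changes of 0.10 to 0.11), and it was 0.106 in limma without the 3 arrays rich in pituitary genes. The other 3 membrane-type MMPs did not pass at an unadjusted p under 0.05. *Mmp14*, which activates MMP2 at the cell surface together with TIMP2, averaged 2.00 ± 0.097 in OUM and 2.06 ± 0.16 in naive rats (SD, n = 5 each), and its 95% interval reached from -0.24 to 0.12. *Mmp24*, an MMP of neurons, had a change of -0.12 ± 0.079 and *Mmp16* of 0.05 ± 0.052 (SE).

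**Figure D3:**
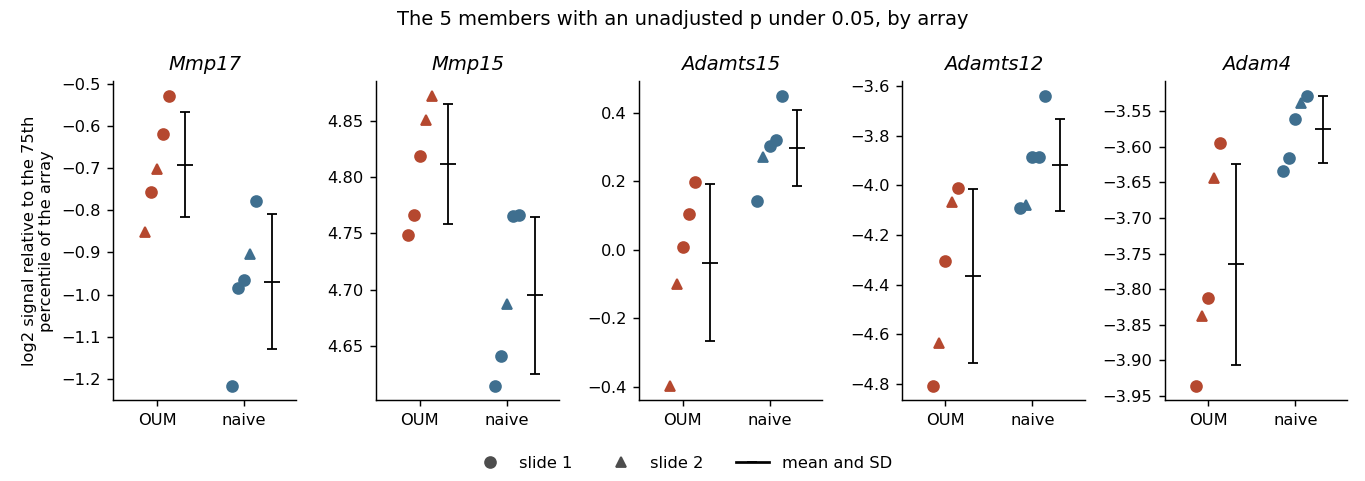
log2 signal relative to the 75th percentile of the array (y axis, its own scale in each panel) for the 5 members with an unadjusted p under 0.05, with OUM left of naive. Each point is 1 rat, circles are slide 1 and triangles slide 2, and bars show the mean and SD; in each panel at least 1 OUM rat lies within the naive range.

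Among the 7 tested ADAMTS genes, 2 were lower in OUM at an unadjusted p under 0.05, beside 4.91% of all features, and none at an adjusted p under 0.05. *Adamts15*, a secreted enzyme that cuts proteoglycans such as versican and aggrecan, had levels of 0.10, 0.20, 0.01, -0.40 and -0.10 in OUM rats and 0.32, 0.45, 0.30, 0.27 and 0.14 in naive rats. In 4 of 5 OUM rats it was below every naive rat, and OUM rat 2 lay above naive rat 5 only. The change was -0.33 ± 0.11 (SE), or 0.793-fold, with an unadjusted p of 0.010 and an adjusted p of 0.495 in limma (exact permutation p = 0.0159). Its second probe, with levels of -6.92 to -6.20 in OUM and -6.72 to -6.43 in naive rats, gave 0.04 ± 0.13 (SE; limma, unadjusted p = 0.787), so the probes of this gene differed in sign, and their mean changed by -0.15 (limma, unadjusted p = 0.053). Within slide 1 the change of the brighter probe was -0.20 and within slide 2 it was -0.52.

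*Adamts12*, known for cutting cartilage oligomeric matrix protein, had the largest change in either direction among the 32 members. Its levels were -4.30, -4.01, -4.81, -4.64 and -4.07 in OUM rats and -3.64, -3.89, -3.89, -4.08 and -4.09 in naive rats. OUM rats 1, 3 and 4 were below every naive rat, while OUM rats 2 and 5 lay in the naive range. The change was -0.45 ± 0.16 (SE), or 0.733-fold, with an unadjusted p of 0.019 and an adjusted p of 0.512 in limma (exact permutation p = 0.0476), and it was -0.50 within slide 1 and -0.27 within slide 2. Bone and cartilage markers (6 of 7 on the array well above background on all arrays) summed to 2.97 to 3.91 in OUM and 3.05 to 4.55 in naive rats; their part in the *Adamts12* value was not tested.

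The other proteoglycan-cleaving ADAMTS genes pointed both ways without passing the test. *Adamts4*, an aggrecanase, averaged -4.72 ± 0.25 in OUM and -5.00 ± 0.25 in naive rats (SD), a change of 0.28 ± 0.14 (SE; limma, unadjusted p = 0.083), with 0.14 within slide 1 and 0.67 within slide 2. It passed an unadjusted p of 0.05 without OUM rat 1 (0.36), without naive rat 1 (0.34) or without the 3 arrays rich in pituitary genes (0.36). *Adamts1*, which cuts versican and aggrecan, changed by 0.20 ± 0.11 (limma, unadjusted p = 0.094; under 0.05 without OUM rat 1 or without naive rat 3, at 0.25 each, and 0.219 without OUM rat 2, at 0.12), and 2 of 5 OUM rats were above every naive rat. Its neighbour on chromosome 11, *Adamts5*, changed by -0.10 ± 0.062 (SE), and *Adamts9* by -0.09 ± 0.057. *Adamts7* had a change of -0.02 ± 0.067. The direction of the 7 tested ADAMTS genes was thus positive in 2 and negative in 5.

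The sheddases of the ADAM family did not differ between the groups at an unadjusted p under 0.05. *Adam10*, which releases the outer parts of Notch and amyloid precursor protein, had levels of -4.18, -3.87, -3.97, -3.55 and -3.50 in OUM rats and -3.70, -3.89, -3.90, -3.77 and -3.71 in naive rats. The OUM rats were spread on both sides of the naive range, with 2 rats below it and 2 above. The change was -0.02 ± 0.12 (SE), and it was -0.20 within slide 1 and 0.25 within slide 2. *Adam17*, the enzyme that releases tumour necrosis factor, averaged -2.69 ± 0.089 in OUM and -2.56 ± 0.13 in naive rats (SD), with a 95% interval of the change of -0.30 to 0.02 (limma, unadjusted p = 0.079). All 5 OUM rats were below naive rats 1, 2, 3 and 5, and naive rat 4, the naive array on slide 2, was at -2.79. Without naive rat 4 the change was -0.20 (limma, unadjusted p = 0.0053), but that fit has no naive array on slide 2. Within slide 1 the change of *Adam17* was -0.20 and within slide 2 it was 0.09. With the slide as a block it was -0.12 (limma, unadjusted p = 0.113).

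*Adam9*, another membrane sheddase, was likewise below naive in mean, by -0.16 ± 0.086 (SE; limma, unadjusted p = 0.096), with 4 of 5 OUM rats below every naive rat. With the slide as a block its change was -0.20 (limma, unadjusted p = 0.021), and without OUM rat 5 it was -0.22 (0.010). *Adam15* changed by 0.07 ± 0.11 and *Adam19*, which can cut neuregulin, by -0.03 ± 0.046 (SE). *Adam11* and *Adam23*, which have no active protease site and bind LGI proteins at synapses and axons, changed by 0.01 ± 0.10 and -0.12 ± 0.061. Among the ADAMs of testis and epididymis, *Adam4* had levels of -3.81, -3.60, -3.94, -3.64 and -3.84 in OUM rats and -3.62, -3.56, -3.63, -3.54 and -3.53 in naive rats. In 4 of 5 OUM rats *Adam4* was below every naive rat, with a change of -0.19 ± 0.067 (SE), or 0.877-fold (limma, unadjusted p = 0.018, adjusted p = 0.505). With normexp background correction it was -0.13 (limma, unadjusted p = 0.053). Within slide 1 and within slide 2 it was -0.20 each. Genes of this group have close copies in the rat genome, and whether a probe reads more than 1 copy was not tested.

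None of the other detected MMPs, most of them secreted, had an unadjusted p under 0.05 in limma with all arrays and no block. *Mmp2*, the gelatinase of fibroblasts and Schwann cells, averaged 1.27 ± 0.18 in OUM and 1.35 ± 0.13 in naive rats (SD), a change of -0.08 ± 0.093 (SE), and its second probe gave -0.07 ± 0.13. The collagenases *Mmp13* and *Mmp1* changed by -0.09 ± 0.17 and 0.06 ± 0.089. *Mmp13* had the largest spread within groups of the 32 members, with an SD of 0.293 beside a median of 0.163 over members and 0.125 over all features. *Mmp11*, a stromelysin that leaves the cell in active form, changed by 0.27 ± 0.13 (limma, unadjusted p = 0.073), *Mmp19* by 0.20 ± 0.12, *Mmp28* by 0.19 ± 0.11 and *Mmp23* by 0.11 ± 0.12. For *Mmp11*, naive rat 5 was at -6.96 and the other naive rats between -6.52 and -6.17, beside -6.37 to -6.06 in OUM rats. The change of *Mmp11* was 0.35 without naive rat 1 (limma, unadjusted p = 0.022), 0.15 without naive rat 5 and 0.04 with normexp background correction (limma, unadjusted p = 0.552). That of *Mmp19* was 0.27 without OUM rat 3 (limma, unadjusted p = 0.040), 0.12 without OUM rat 2, 0.11 within slide 1 and 0.39 within slide 2. For *Mmp28* it was 0.23 with the slide as a block (limma, unadjusted p = 0.035) and 0.26 without OUM rat 5, but 0.12 without naive rat 1, 0.06 without the 3 arrays rich in pituitary genes and 0.05 with normexp.

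The TIMPs were close to equal in mean in both groups. *Timp2* had levels of 5.31, 5.48, 5.38, 5.14 and 5.36 in OUM rats and 5.38, 5.22, 5.27, 5.26 and 5.27 in naive rats. OUM rats lay both above and below the naive range, and the change was 0.05 ± 0.064 (SE) with a 95% interval of -0.09 to 0.20. *Timp3*, which binds to the matrix and also blocks ADAM17 and aggrecanases, averaged -1.18 ± 0.17 in OUM and -1.19 ± 0.17 in naive rats (SD), with an interval of -0.22 to 0.23. *Timp4* averaged -1.53 ± 0.28 in OUM and -1.62 ± 0.16 in naive rats, with an interval of -0.20 to 0.38, and its second probe gave 0.12 ± 0.13. The upper ends of these 95% intervals, 0.20 log2 units for the *Timp2* probe and 0.38 for *Timp4*, do not bound the change, and the fit had no slide term. Within slide 1 and slide 2 the changes were 0.10 and -0.0043 for *Timp2* and -0.07 and 0.27 for *Timp3*. For *Timp4* they were 0.06 and -0.03.

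**Figure D4:**
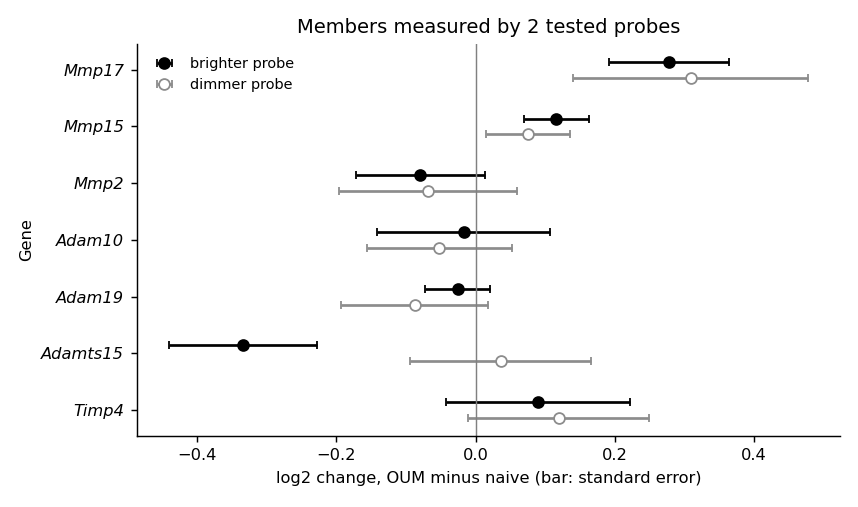
log2 change (x axis, OUM minus naive, bar: standard error) of the brighter and the dimmer probe of the 7 members measured by 2 tested probes (y axis). The probes have the same sign for 6 genes and opposite signs for *Adamts15* (-0.33 and 0.04).

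Where a gene had 2 tested probes, the probes mostly pointed the same way. This was so for 6 of 7 genes (*Mmp17*, *Mmp15*, *Mmp2*, *Adam10*, *Adam19* and *Timp4*), and *Adamts15* was the exception. Slides differed more. Taken within each slide, 19 of the 32 members (59.4%) had the same sign of change on both slides, beside 50.8% of all features, and slide 2 has 1 naive array, so that its differences rest on that array. The 5 members with an unadjusted p under 0.05 were among the 19, but they were picked on these same arrays. Their equal signs are therefore no independent support, and the 50.8% covers features not picked in this way. *Adam10*, *Adam17*, *Mmp2*, *Adam1a*, *Mmp1* and all 3 TIMPs were among the 13 with opposite signs.

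**Figure D5:**
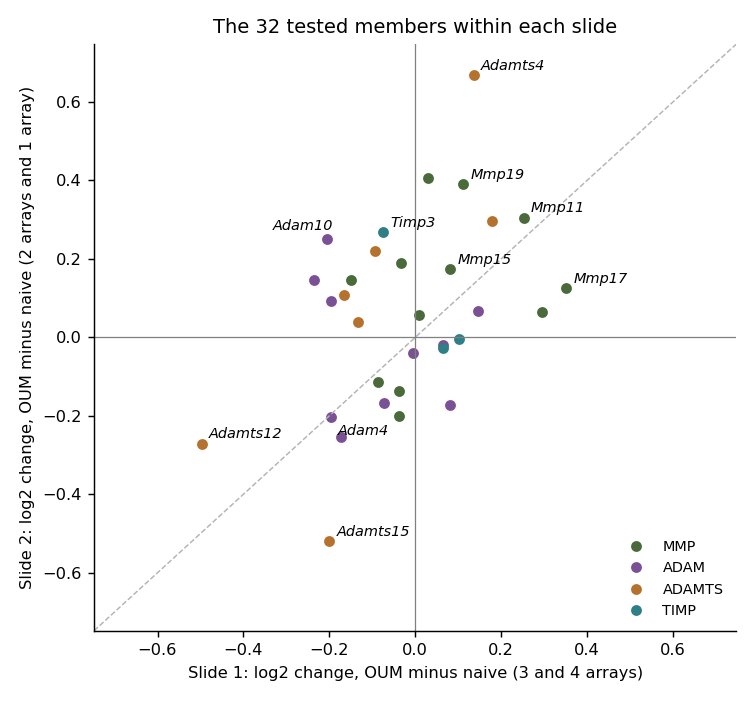
log2 change of the 32 tested members within slide 1 (x axis, 3 OUM and 4 naive arrays) and within slide 2 (y axis, 2 OUM arrays and 1 naive array), coloured by family. The dashed line marks equal change; *Adamts4* lies at 0.14 and 0.67, and *Adam10* at -0.20 and 0.25.

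The genes that act with these proteases or are cut by them were compared in the same fit. Of 74 listed inhibitors, activators, sheddase partners, other matrix metalloproteases and substrates, 66 were on the array and 53 were tested. At an unadjusted p under 0.05, 6 of 53 were higher in OUM and 1 (*Plat*, tissue plasminogen activator, -0.13 ± 0.059) was lower, beside the same 3.92% and 4.91% of all features, and none passed an adjusted p of 0.05 in limma. Of the 6, 4 were among the 24 tested substrates. *Il6r*, the interleukin 6 receptor that ADAM10 and ADAM17 release from the cell surface, averaged -3.28 ± 0.12 in OUM and -3.81 ± 0.24 in naive rats (SD). The change was 0.53 ± 0.11 (SE, limma, unadjusted p = 0.00067, adjusted p = 0.269), with 5 of 5 OUM rats above every naive rat. No other of the 53 tested related genes had groups that did not overlap, beside 1.82% of all features, so this share was near that of all features. Brevican (*Bcan*), a proteoglycan cut by ADAMTS4 and other members, changed by 0.38 ± 0.11 (SE, limma, unadjusted p = 0.0075) with 4 of 5 OUM rats above every naive rat. The mean of the *Bcan* probes changed less, by 0.24 (limma, unadjusted p = 0.020). On the brightest probe the change was 0.43 within slide 1 and 0.23 within slide 2. The endocytic receptor *Lrp1*, which takes up several of these proteases, changed by 0.29 ± 0.094 and *Notch1* by 0.17 ± 0.055 (SE). *Il6r* changed by 0.19 within slide 2, and the mean of the *Notch1* probes by 0.09 (limma, unadjusted p = 0.257). *Plat* had an unadjusted p above 0.05 with the slide as a block (0.067), under other scalings (0.071 to 0.102) and when any 1 rat other than naive rat 2 or OUM rat 1 was left out (0.113 without naive rat 1). The other 2 of the 6 were the furin-like protease *Pcsk6* (0.27 ± 0.10) and *Tspan5* (0.19 ± 0.085), a tetraspanin partner of ADAM10. With the slide as a block *Tspan5* changed by 0.16 (limma, unadjusted p = 0.059), and its unadjusted p was also above 0.05 without naive rat 1, 2 or 3 or without OUM rat 2, 4 or 5. That of *Pcsk6* was above 0.05 within slide 1 (0.24) and without naive rat 2 (0.22), naive rat 3 (0.24) or OUM rat 2 (0.24), where the values are log2 changes. None of 7 tested inhibitors and adaptors and none of 4 tested other matrix metalloproteases had an unadjusted p under 0.05. Satellite glia markers summed to 23.0 to 34.4 in OUM and 21.4 to 29.4 in naive rats, and their part in the *Bcan* value was not tested.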

How the data were processed

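The members and lists were chosen with earlier results of these data known. The authors quantified 1-colour Agilent arrays with Feature Extraction 10.7.1.1; the deposited processed signal is an intensity from which the scanner software has taken off background. The authors' normalized table, also deposited as a linear intensity signal, holds that signal divided by a constant per array. Here, spots marked non-uniform or outlying were dropped, and the log2 intensity of a probe's other spots was averaged, relative to the 75th percentile of the array, with probes named by accession through RefSeq (GRCr8): 18438 of 30367 probes had a symbol. Of several probes of 1 gene, the brightest on average was used. Features called well above background in all 5 rats of at least 1 group entered limma 3.58.1 in R 4.3.3, two-sided, with Benjamini-Hochberg adjustment over 19271 features; single members also had an exact permutation test (252 assignments, smallest p 0.00794). The arrays of a group are from separate rats, and their number limits the precision. Named members are those at an unadjusted p under 0.05, those with the 8 largest changes, the 4 most variable within groups, those with an outlying array, groups that did not overlap, probes of opposite sign or detection in 1 group alone, and a set of TIMPs and main proteases; others are given as values in their group. Related genes named are at most the 6 with the lowest p, and *Plat* was added as the only lower one. Normexp (offset 50) used the median spot signal. In simulated data for this comparison (19271 features, 200 of them changed), the fit recovered 77.6% of features changed 1.5-fold, 92.5% changed 2-fold and 97% changed 4-fold at an adjusted p under 0.05. The simulation drew independent normal noise with each feature's own SD and added no slide or pituitary differences. In the real arrays 2 of 19271 features passed, and the members varied more within groups (median SD 0.163 beside 0.125). These shares therefore do not give the recovery to be had for the members. A pair of genes of these families is not reported here.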

Additional observations from a re-analysis of the deposited data

Results flagged for a closer look

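In 5 of 64 groups of 5 rats, 1 rat lay far from the other 4 of its group for a tested member; chance flags about 1 group in 20. All 5 were in the naive group. *Adam1a* was at -2.04 in naive rat 5, against -2.85 to -2.70 in the other naive rats. *Adam17* was at -2.79 in naive rat 4, against -2.55 to -2.47 in the others, and *Adam9* was at -2.29 in the same rat, against -2.55 to -2.51. *Mmp1* was at -6.10 in naive rat 1, against -5.96 to -5.91 in the others, and *Mmp13* at -4.20 in naive rat 3, against -3.79 to -3.62. Naive rat 4 is the only naive array on slide 2, and naive rat 1 is one of the 3 arrays rich in pituitary genes; the part of slide and dissection in these values was not tested.

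A pair of members that did not enter the test were well above background on more OUM than naive arrays. *Adamts19* was so on 3 OUM arrays and 0 naive arrays, with levels of -7.40, -6.61, -7.22, -7.54 and -7.15 in OUM rats and -7.78, -7.97, -8.07, -6.72 and -7.37 in naive rats, so the groups overlapped. *Adamts18* was so on 2 OUM arrays and 1 naive array, with levels of -8.07 to -6.27 in OUM and -7.89 to -6.88 in naive rats.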

How the results depend on the processing

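No alternative gave a member an adjusted p under 0.05. The 5 members at an unadjusted p under 0.05 kept their direction under all 26 alternatives each. This was read on the brighter probe where probes were tested separately (the dimmer *Adamts15* probe gave 0.036). All alternatives reuse the arrays on which these members were picked, and several leave the log2 change itself unaltered, so the kept directions are not separate evidence. Leaving out the 3 arrays rich in pituitary genes was chosen after seeing the data. The number of higher members (2) became 1 with the replicate block and 1 without those 3 arrays, and was 1 to 3 when each array was left out in turn. The number of lower members (3) became 6 within slide 1 and 1 within slide 2, and was 3 to 5 when each array was left out. The members' median (-0.0044) became -0.059 with all 50 members and no filter, and 0.066 within slide 2, and was -0.027 to 0.020 when each array was left out. Of the related genes, 6 higher became 10 within slide 2, with 4 to 8 when each array was left out; the 1 lower became 0 with quantile normalization, median centring, normexp, the slide as a block, the replicate block, the methods' t-test or the authors' table, 2 within slide 1 and 2 without the 3 pituitary-rich arrays, with 0 to 4 when each array was left out.

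Reversed in sign were *Adam10* with median centring (0.0030), within slide 2 (0.25), without the pituitary-rich arrays (0.15) and among single arrays left out (-0.096 to 0.076); *Timp3* with normexp (-0.0021), within slide 1 (-0.075), without the pituitary-rich arrays (-0.014) and among single arrays left out (-0.051 to 0.062); *Mmp1* within slide 1 (-0.033); *Timp2* (-0.0043), *Timp4* (-0.027), *Adam17* (0.094), *Mmp2* (0.15) and *Adam1a* (0.15) within slide 2; *Mmp14* without the pituitary-rich arrays (0.0057); *Mmp13* (-0.19 to 0.023) and *Timp4* (-0.020 to 0.16) among single arrays left out. The single-array reversals were *Adam10* without naive rat 1 (0.0057), naive rat 5 (0.0034), OUM rat 1 (0.076) or OUM rat 3 (0.022), *Timp3* without naive rat 2 (-0.014), naive rat 4 (-0.050), OUM rat 1 (-0.028) or OUM rat 4 (-0.051), *Mmp13* without OUM rat 2 (0.023) and *Timp4* without OUM rat 4 (-0.020). The cause of these differences was not tested.

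Same-numbered rats did not pair: 2 of 5 correlations of their deviations were over 0.1 and 1 of 10 arrays was closest to its own number, so the replicate block has no basis in the design. Of all features at an unadjusted p under 0.05, 44.4% were higher, against 55.3% with quantile normalization, 65% with median centring, 56.1% with normexp and 58.5% in the authors' table. With 5 rats a group and dim probes for 18 of 50 members, small changes and undetected members could not be judged.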
